A study of Mus musculus with 2 samples.

Results

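The genes described here are the 5 interleukin genes that mark T helper 17 (Th17) cells or accompany them, Il17a, Il17f, Il21, Il22 and Il9, together with Il23r, which encodes a chain of the interleukin 23 receptor. They were chosen by symbol, as the probes annotated to 1 of these genes alone, and each gene had 1 such probe, so 6 genes and 6 probes stand among 17501 named genes with 26926 probes. Cultured mouse lymphocytes gave the RNA for 2 two-colour microarrays, one with Th1-polarized and Th0 RNA (the Th1 array) and one with Th17-polarized and Th0 RNA (the Th17 array). Per the labels, all cells came from a TRP-1 mouse, a line whose helper T cells carry a receptor for a melanoma antigen, the polarized RNA carried Cy5 and the Th0 RNA carried Cy3. The number, age and sex of the mice, the polarizing cytokines, the time in culture and the sorting of the cells are not given in the sources used here. Each comparison rests on 1 array, with no replicate and no dye swap, so no value below has an error between samples and no test was possible.

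Th17 cells are a helper T cell lineage that develops from naive T cells under transforming growth factor beta and interleukin 6, with signalling through the transcription factor STAT3. They are known for interleukin 17A and 17F, which act on epithelial and stromal cells to recruit neutrophils, and for interleukin 21, which acts on T and B cells and on the Th17 cells themselves. Interleukin 22 acts on epithelial cells, interleukin 9 on mast cells among others, and interleukin 23, sensed through Il23r, sustains the lineage.

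The deposited value of a probe was taken as the log2 ratio of the 2 channels, and fold sizes are given as 2 raised to its size. The order of the ratio is not settled by the table. Read as titled, polarized over Th0, a negative value means less RNA in the polarized cells; with the sign turned, it means more. Values are printed as deposited; their sizes hold under either reading. In bulk RNA, a different share of cells making a transcript and a different amount per cell cannot be told apart.

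The promoter sequences of 4 of the 6 genes are shown because they hold a core element of retinoic acid-related orphan receptors (ROR) or an AP-1 site. They come from RefSeq's annotation of build GRCm38.p6, which matched all 6 genes by symbol, and run over the 250 bases before the annotated start, 5′ to 3′ on the gene's strand. The Il17a window is chr1:20730655-20730904 on the plus strand, that of Il17f chr1:20784271-20784520 on the minus strand, that of Il23r chr6:67491856-67492105 on the minus strand and that of Il9 chr13:56482258-56482507 on the minus strand. Capitals mark the ROR element AGGTCA, the AP-1 site TGANTCA and the TATA box TATAAA, each on either strand.
Il17a: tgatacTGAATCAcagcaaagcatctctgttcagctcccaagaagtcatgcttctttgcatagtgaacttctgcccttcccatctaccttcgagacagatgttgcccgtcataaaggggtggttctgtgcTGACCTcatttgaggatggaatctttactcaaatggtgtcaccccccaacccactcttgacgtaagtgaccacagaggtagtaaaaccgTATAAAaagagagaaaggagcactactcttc
Il17f: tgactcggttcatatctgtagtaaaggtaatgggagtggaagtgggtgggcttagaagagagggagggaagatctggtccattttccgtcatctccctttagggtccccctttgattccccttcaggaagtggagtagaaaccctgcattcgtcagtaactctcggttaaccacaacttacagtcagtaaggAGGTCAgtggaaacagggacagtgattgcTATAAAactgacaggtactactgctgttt
Il23r: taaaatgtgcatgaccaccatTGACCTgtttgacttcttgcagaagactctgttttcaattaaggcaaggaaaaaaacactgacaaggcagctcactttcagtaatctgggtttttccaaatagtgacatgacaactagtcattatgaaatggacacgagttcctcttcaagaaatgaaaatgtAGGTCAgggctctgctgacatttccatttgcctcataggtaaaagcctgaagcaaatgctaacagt
Il9: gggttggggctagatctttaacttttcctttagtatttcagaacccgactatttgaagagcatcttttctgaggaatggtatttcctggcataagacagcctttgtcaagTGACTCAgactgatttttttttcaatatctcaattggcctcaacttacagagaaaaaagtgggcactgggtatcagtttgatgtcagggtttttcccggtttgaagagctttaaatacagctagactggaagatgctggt

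The ROR element was found in 3 of the 6 windows, against 14.0% of all 32851 promoter windows of this length. It lay 120 bases before the start of Il17a and 58 bases before that of Il17f, and 2 times in the Il23r window, at 229 and 66 bases. The AP-1 site was found in 2 of 6, Il17a at 244 bases and Il9 at 140 bases, against 6.75% of all windows. The Runx site TGTGGT was found in 2 of 6, at 52 bases in Il17a and 81 bases in Il17f, against 14.0%. The TATA box was found in 3 of 6 against 12.4%, and it lay 31 bases before the start of Il17a, 29 bases before that of Il17f and 170 bases before that of Il22. The NFAT core GGAAA was in 5 of 6 against 55.6%, with Il17a the member lacking it, and the STAT site TTCNNNGAA was in 0 of 6 against 7.02%. No matches of different motifs overlapped in these windows. Il17a and Il17f, which lie next to each other on chromosome 1, shared the ROR element, the Runx site and the TATA box, while the Il21 window held matches to the NFAT core only. These matches are descriptions of letters in a window and no binding was measured.

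On the Th17 and Th0 array, all 6 genes lay at least 2-fold on the negative side, where 5.52% of the 17501 named genes lay. Their median log2 ratio was −4.25, against −0.03 over all genes, and 0 of 6 lay at least 2-fold on the positive side, where 2.9% of all genes lay. On the Th1 and Th0 array, 3 of 6 lay at least 2-fold on the negative side, where 6.92% of all genes lay, and the median was −0.85 against −0.08. As deposited, 0 of 6 passed 2-fold on the positive side, where 3.27% of all genes lay. Counted from 3-fold, 1 of 6 remained on the negative side, with 2.49% of all genes. Centring this array on the median of all probes left 2 of 6 past 2-fold on the negative side, with 5.65% of all genes. Centring it on its most repeated value, which raises every value by 0.85, left 1 of 6 there, with 1.7% of all genes, and put 1 of 6, Il17a, past 2-fold on the positive side, with 29.8% of all genes. On the Th17 array all 6 stayed past 2-fold under each centring. The array that held Th17 RNA thus carried the larger ratio for each of the 6 genes.

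**Figure D1:**
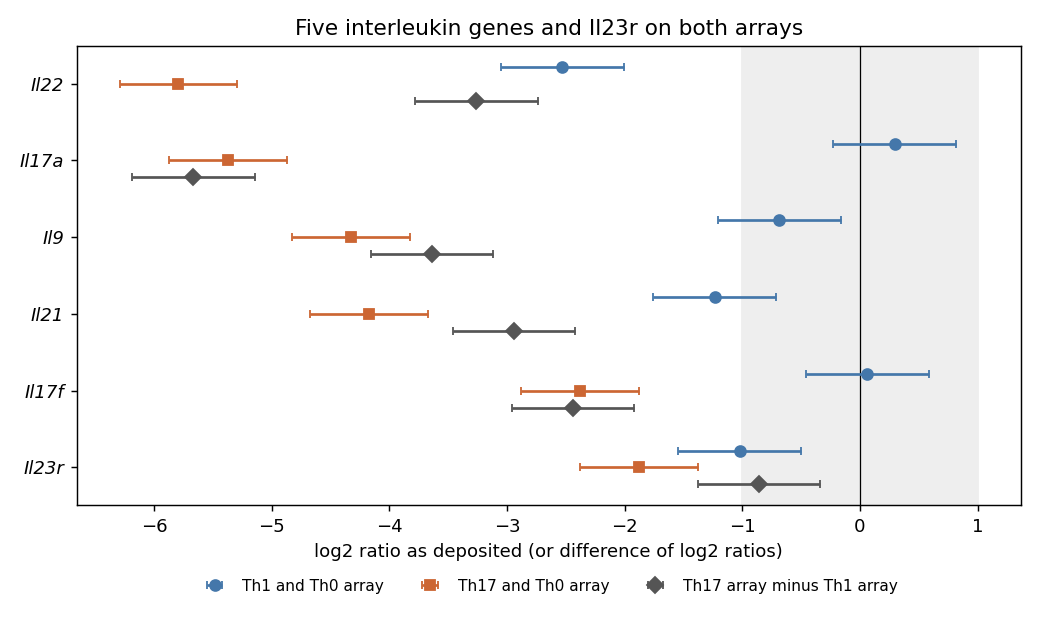
Log2 ratio as deposited (horizontal axis) of each of the 6 genes on the Th1 and Th0 array (circles) and the Th17 and Th0 array (squares), and the difference of the 2 (diamonds). Bars are 1 pooled SD between different probes of a gene, taken from other genes, and the grey band is under 2-fold; all squares lie left of the band, from −5.79 for Il22 to −1.88 for Il23r.

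Among the effector cytokines, Il17a, which encodes the founding member of the interleukin 17 family, had the widest gap between the arrays. Its log2 ratio was 0.29 with Th1 RNA and −5.37, a 41.4-fold ratio, with Th17 RNA. Among 17501 genes Il17a ranked 10 from the lowest on the Th17 array, while 79.4% of genes lay lower than Il17a on the Th1 array. The difference between the arrays was −5.67, or 50.8-fold, and ranked 3 from the lowest.

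Il17f encodes the closest relative of interleukin 17A, with which it pairs into a heterodimer. It lay at 0.06 with Th1 RNA, which turned to −0.19 when the arrays were centred on control genes, and at −2.38 with Th17 RNA, which is 5.2-fold, and the difference was −2.44. As deposited, Il17f and Il17a both lay near 0 on the Th1 array and on the negative side of the Th17 array, with a smaller size for Il17f. Centred on the most repeated value, their Th1 values were 0.91 for Il17f and 1.14 for Il17a, the latter past 2-fold on the positive side. On the Th17 array Il17f ranked 135 and in the difference 86 from the lowest.

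Il22 encodes an epithelium-directed cytokine of the interleukin 10 family. It had the largest ratio of the 6 genes on both arrays, −2.53 (5.78-fold) with Th1 RNA and −5.79 (55.5-fold) with Th17 RNA, and it ranked 118 and 5 from the lowest. The difference was −3.26, or 9.59-fold, so unlike Il17a and Il17f it also stood apart on the array with Th1 RNA. The probe of Il22 may share signal with Iltifb, a near-identical copy that lies next to it on chromosome 10. The 2 probes annotated to Iltifb read −1.13 and −2.59 with Th1 RNA, and −4.11 and −3.50 with Th17 RNA, so they lay on the side of Il22 on both, and which of the copies gave the signal cannot be told apart.

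Il21, the autocrine cytokine, lay at −1.23 (2.35-fold) with Th1 RNA and at −4.17 (18.1-fold) with Th17 RNA. The difference was −2.94, 7.68-fold, at rank 46 from the lowest. As deposited it passed 2-fold on both arrays, like Il22. Centred on the most repeated value, Il21 lay at −0.39 on the Th1 array and no longer passed, while Il22 lay at −1.68 and did.

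Il9 encodes a growth factor of mast cells and T cells that Th9 and Th17 cells can make. It lay at −0.69 with Th1 RNA, within 2-fold and turning to 0.16 when that array was centred on its most repeated value, and at −4.33 (20.1-fold) with Th17 RNA. The difference of −3.64, or 12.5-fold, was the second in size of the 6 genes and ranked 22 from the lowest of all.

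Il23r, the only receptor gene of the 6, had the smallest ratio on the Th17 and Th0 array. It lay at −1.02, which is just past 2-fold, with Th1 RNA and at −1.88 (3.68-fold) with Th17 RNA. The Th1 value no longer passed 2-fold when centred on the median of all probes (−0.91) or on the most repeated value (−0.17). The difference of −0.86, 1.81-fold, did not reach 2-fold, and Il23r was the 1 member of which this held as deposited. Centred on the most repeated values, the difference of Il23r was −1.28 and 6 of 6 passed, with 9.49% of all genes on the negative side. As deposited, 5 of the 6 genes differed at least 2-fold to the negative side between the arrays, where 3.61% of all genes did, and 0 to the positive side, where 4.53% did. The median difference was −3.10 over the 6 genes and 0.04 over all genes. The difference assumes a common Th0 RNA, on which the labels are silent.

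With 1 probe per gene, the spread between different probes of other genes is the nearest guide to the error within an array. Over 5871 genes with 2 to 15 probes the pooled SD was 0.52 on the first array, with Th1 RNA, and 0.50 on the second, and 0.71 for a difference between 2 probes on the latter. On the Th17 array the order from the lowest was Il22, Il17a, Il9, Il21, Il17f and Il23r. The gaps from Il17a to Il9 (1.05) and from Il21 to Il17f (1.80) were larger than 0.71, and the gaps from Il22 to Il17a (0.42), from Il9 to Il21 (0.15) and from Il17f to Il23r (0.50) were within it. At a cut of 1 such SD, the 6 genes thus fell into 3 pairs, and this grouping depends on the cut. On the Th1 array the gap from Il22 to the next gene, Il21, was 1.30, larger than the 0.74 that holds there, that from Il9 to Il17f was 0.75, and the other 3 gaps were smaller. Ratios of different probes depend on how each probe hybridizes, and none of this covers differences between mice or cultures.

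**Figure D2:**
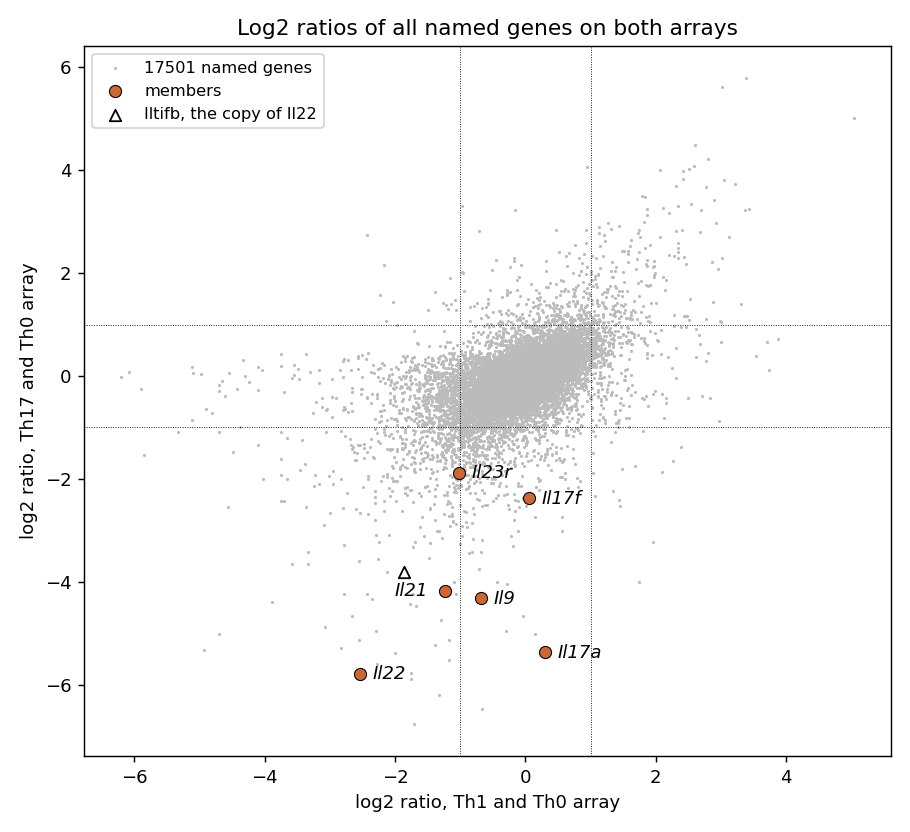
Log2 ratio on the Th1 and Th0 array (horizontal) and on the Th17 and Th0 array (vertical) of 17501 named genes (grey), the 6 genes (filled circles) and Iltifb (triangle, mean of 2 probes). Dotted lines mark 2-fold; Il17a and Il17f lie straight below the centre of the cloud, Il22 and Il21 to its lower left.

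Very large ratios on an array can come from a channel with almost no signal, and the deposited values allow a partial check of this, for weaker signals up to 5 units. Values repeated at 1 constant per array, −0.85 on the Th1 and −0.43 on the Th17 array, and elsewhere at that constant plus the log2 of ratios of small whole numbers, as ratios of whole-number signals do. Of 38 genes with 1 probe that lay at least 16-fold on the negative side of the Th17 array, 31 had a ratio that a weaker signal of 5 units or fewer gives, and for 29 of these a weaker signal of 1 unit was enough. The remaining 7 held all 4 members in this range, Il22, Il17a, Il9 and Il21, beside Gdf6, Jchain and Foxf2, which are named here after their values were seen. No such match was found for any of the 6 genes on either array. If values are ratios of whole-number signals, the weaker channel of Il22 therefore held more than 5 units and the stronger more than 206, and for Il17a the stronger held more than 154. The search stopped at 5 units, so whether the weaker channel of a member lay only just above that was not tested. The signals themselves are not in the table, and a match can also arise by coincidence.

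The genes nearest to each member were taken by the Euclidean distance between log2 ratios over the 2 arrays, among 16951 named genes without clone names. Nearest to Il17a were Trim6 at distance 0.39, Gdf6 at 0.72 and Ocrl at 0.78, and only these 3 genes lay within 1 log2 unit of it. Nearest to Il22 were Olfr1284 at 0.32, Fyb2 at 0.59 and Pcdhb11 at 0.67, among 7 genes within 1 unit. Nearest to Il21 were Cylc1 at 0.06, C2cd4c at 0.17 and Ccna1 at 0.21, and nearest to Il9 were C2cd4c at 0.39, Slc35a2 at 0.40 and Foxf2 at 0.49. Of these, all but Gdf6 and Foxf2 had a Th17 ratio that a weaker signal of 1 unit gives; whether their signals resemble those of the members cannot be read from ratios. The surroundings of Il17f and Il23r were denser, with 141 and 648 genes within 1 unit. Nearest to Il17f were Nt5e, the ectoenzyme CD73, at 0.04, Vmn1r210 at 0.09 and Gsdmc4 at 0.15. Nearest to Il23r were Cbln1 at 0.06, Lta, the lymphotoxin alpha gene, at 0.07, and Bmper at 0.08. None of these 6 had the weak-signal match on the Th17 array.

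The genes beside the 6 members on their chromosomes lay on both sides of the Th17 array. The 2 nearest measured protein-coding genes on each side, 20 in all outside the 6 and chosen after the members' values were known, had a median of −0.43 there, against −0.03 over all genes and −4.25 over the members. Of these, 4 of 20 passed 2-fold to the negative side (5.52% of all genes did), which were Iltifb, the copy of Il22, at −3.80, and Il2, Paqr8 and Fgf2. To the positive side 2 of 20 passed (2.9% of all genes did), Il12rb2 and Eif2ak3. Il2, the T cell growth factor gene beside Il21 on chromosome 3, lay at −0.59 on the Th1 and −2.50 on the Th17 array, and Fgf2, on the other side of Il21, at −0.70 and −1.24. Ifng, the interferon gamma gene beyond Iltifb on chromosome 10, lay at −2.02 on the Th1 and −0.83 on the Th17 array, the reverse of the order of Il22. Mcm3, the replication gene next to Il17f, lay at 0.50 and −0.70, and Paqr8, the next gene, at −0.06 and −1.55. The genes on either side of Il9 on chromosome 13, Slc25a48 and Fbxl21, lay at −0.07 and −0.88 on the Th17 array against −4.33 for Il9.

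The pair on chromosome 6 is of 2 receptor genes. Il23r lies beside Il12rb2, whose product pairs with the same partner chain, encoded by Il12rb1, to sense interleukin 12. Il12rb2 lay at −0.59 on the Th1 and 1.01 on the Th17 array, so on the Th17 array the neighbours lay on opposite sides, both past 2-fold. Il12rb1 itself lay at 0.08 and 1.26 (mean of 2 probes).

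**Figure D3:**
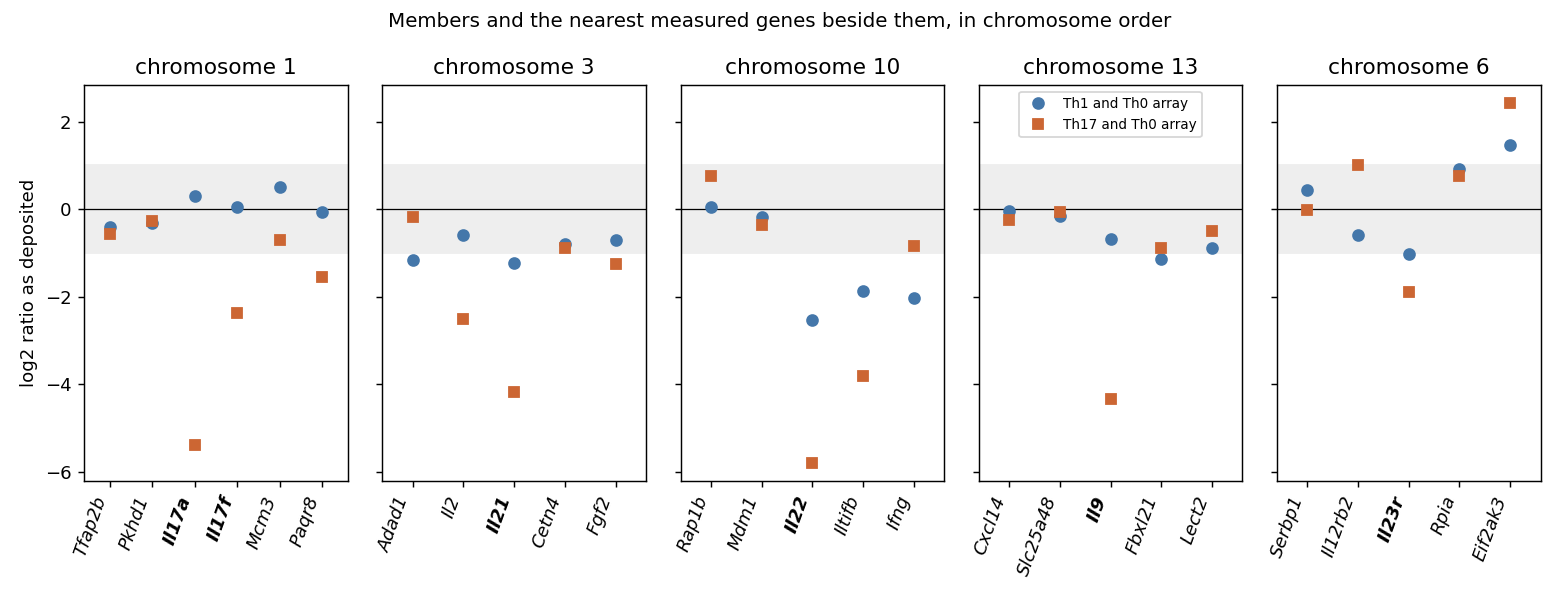
Log2 ratio as deposited (vertical) on the Th1 and Th0 array (circles) and the Th17 and Th0 array (squares) of the members (bold) and the nearest measured protein-coding genes beside them, in chromosome order and not to scale of distance. The grey band is under 2-fold; the squares of Il9 and Il17a lie far below those of the genes outside the 6 beside them, and Il12rb2 lies above the band beside Il23r.

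Beside the list and marker counts from here on stand the shares of all genes past 2-fold. They were 5.52% negative and 2.9% positive on the Th17 array, and 6.92% and 3.27% on the Th1 array. The other ligands and receptors of the interleukin 17 family stayed close to 0. Of 10 measured genes, 1 lay at least 2-fold on the negative side of the Th17 array and 0 on that of the Th1 array, with medians of −0.25 and −0.29. The exception was Il17re, a receptor chain for interleukin 17C, at 0.05 on the Th1 and −1.10 on the Th17 array, but its 2 probes differed widely on the latter (SD 1.16). Il17d, another family ligand, lay at −0.48 on the Th17 array, and the receptor chains Il17ra and Il17rc, which sense interleukin 17A and 17F together, at −0.46 and −0.45.

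Of 11 genes for ligands, receptors and signalling of interleukins 23 and 12, 3 lay at least 2-fold on the positive side of the Th17 array and 0 on the negative side. They were Il12rb1, Il12rb2 and, at 1.01, Il23a, the subunit specific to interleukin 23. Il12b, which encodes the subunit that interleukins 12 and 23 share, lay at −0.91 on the Th17 array and at −1.09 on the Th1 array, where it was the 1 gene of the list past 2-fold. Il23r was thus on the side opposite to its partner chain and to the gene of the ligand's specific subunit.

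Relatives of Il22 in the interleukin 10 family, and their receptors, gave 1 of 9 measured genes past 2-fold on the negative side of the Th17 array and 2 on that of the Th1 array, with 0 on the positive side of either. Il24, a family cytokine, lay at −1.27 on the Th1 and −1.56 on the Th17 array, and Il10, the inhibitory cytokine, at −2.35 and −0.36. The receptor genes Il10rb, a chain that the interleukin 22 receptor uses, Il10ra and Il20ra lay at −0.94, 0.86 and −0.70 on the Th17 array.

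Il21 and Il9 signal through receptors that share the common gamma chain. Of 11 measured cytokines and receptors of that group, 1 lay at least 2-fold on each side of the Th17 array, Il2 at −2.50 and Il2rb, a receptor chain for interleukins 2 and 15, at 1.65. On the Th1 array 1 lay past 2-fold on the negative side, Il7r, a receptor chain for interleukin 7, at −1.29, which lay at −0.79 on the Th17 array. Il4ra, a receptor chain for interleukin 4, lay at −0.57 on the Th17 array. The receptor genes of the members' own ligands, Il21r and Il9r, lay at −0.35 and −0.03 there, within 2-fold.

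The genes of the inputs that drive the lineage, interleukins 6 and 1, transforming growth factor beta and STAT3, had 4 of 13 members at least 2-fold on the negative side of the Th17 array and 0 on the positive side. On the Th1 array 1 lay on each side. Il1r1, the interleukin 1 receptor, lay at −0.87 on the Th1 and −2.17 on the Th17 array, with 2 probes that differed widely on the latter (SD 1.45). Il1b, the gene of interleukin 1 beta, lay at 0.61 and −2.01, and Socs3, a STAT3-induced feedback inhibitor, at −1.26 and −1.54. Il1rn, the antagonist of interleukin 1, lay at 0.30 and −1.04, and its 2 probes also differed on the latter (SD 0.78). Centring on the median of all probes left 3 of 13 past 2-fold on the negative side of the Th17 array, with 5.1% of all genes. Stat3 lay at 0.06 and −0.34.

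Of 11 measured Th17 transcription factor genes, 3 lay at least 2-fold on the negative side of the Th17 array and 1 on the positive side, and 0 passed 2-fold on the Th1 array. Irf4, which acts in several helper lineages, lay at −0.71 on the Th1 and −2.41 on the Th17 array. Ahr, the aryl hydrocarbon receptor on which Il22 expression is known to depend, lay at 0.35 and −1.73. Batf3, a basic leucine zipper factor, lay at −0.51 and −1.25, while Nfkbiz, a nuclear IkappaB protein that promotes Il17a expression, lay at −0.60 and 1.19. Rora, which encodes a nuclear receptor of the ROR family, lay at −0.44 and −0.87 (mean of 3 probes, with an SD of 0.91 on the latter).

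Among 8 further genes of the Th17 programme, 2 lay past 2-fold on the negative side of each array. Of all genes, 6.92% did so on the Th1 and 5.52% on the Th17 array. On the Th1 array these were Csf2, a myeloid growth factor, at −2.97 and the chemokine receptor gene Cxcr6 at −1.65, which lay at −0.06 and 0.12 on the Th17 array, so that their differences were positive (2.91 and 1.77). On the Th17 array they were Ccl20 and Lta. Ccl20, a chemokine that attracts cells with the receptor Ccr6, lay at −0.67 on the Th1 and −6.48 on the Th17 array, where its ratio matched a weaker signal of 5 units. Lta lay at −0.97 and −1.82, Ccr6 at −0.07 and −0.76, and Il1r2, the decoy receptor for interleukin 1, at 0.47 and −0.63. The 8 helper cytokines tied to other fates split. On the Th17 array 1 lay past 2-fold on each side, Il2 at −2.50 and Il5, the eosinophil growth factor, at 1.5, with Ifng at −0.83 and Il10 at −0.36. On the Th1 array 3 lay past 2-fold on the negative side, Ifng, Il10 and Csf2. Csf2 is also 1 of the 8 further genes of the Th17 programme counted above. In the difference between the arrays, 5 of the 8 helper cytokines, Csf2 among them, lay past 2-fold on the positive side, where 4.53% of all genes lay. On the negative side 1 of 8 did, with 3.61% of all genes. Of the 6 members, 0 lay past 2-fold on the positive and 5 on the negative side. Centring on the median of all probes left 4 of 8 on the positive side, with 3.95% of all genes.

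**Figure D4:**
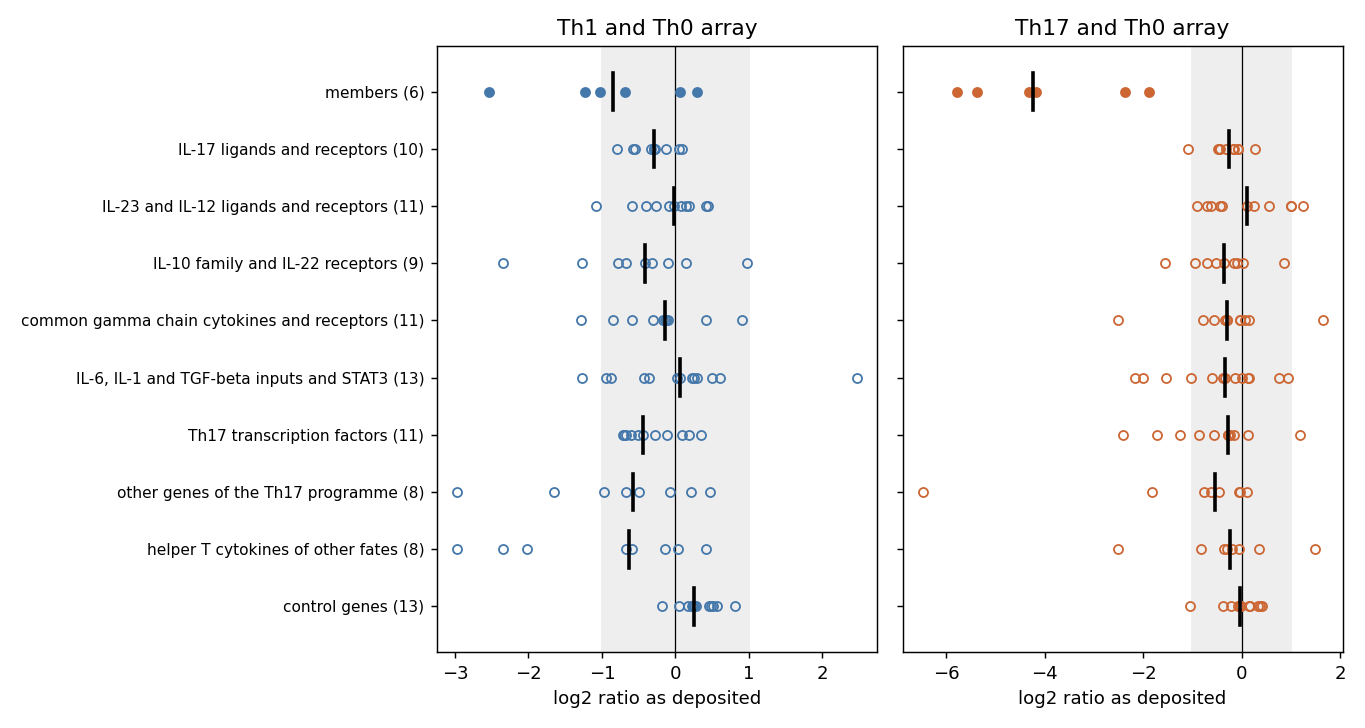
Log2 ratio as deposited (horizontal) of the 6 members (filled) and of the genes of each pathway list (open, number measured in brackets) on the Th1 and Th0 array (left) and the Th17 and Th0 array (right). Black bars are medians and the grey band is under 2-fold; the members' median on the right, −4.25, lies outside the band and that of each list within it.

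The labels name lymphocytes, and ratios do not show whether a marker is present. Markers of other cells lay away from 0 on the arrays, and their values are given beside those of the members. Mast cell and basophil markers, whose cells respond to interleukin 9, lay at least 2-fold on the positive side in 9 of 9 on the Th1 and 5 of 9 on the Th17 array (medians 2.30 and 1.04). Myeloid markers did so in 10 of 12 and 6 of 12 (medians 1.68 and 0.92), with 1 of 12 past 2-fold on the negative side of the Th17 array. Helper T cell markers lay at least 2-fold on the negative side in 3 of 9 and 5 of 9 (medians −0.70 and −1.0). All 6 members lay on this side of the Th17 array. The markers ran from −1.43 to −0.07 on the Th1 and from −1.34 to 0.43 on the Th17 array. On the latter, 7 of 9 lay below 0, and Cd3e (0.14) and Cd3g (0.43) lay above it. Markers of gamma delta T and innate lymphoid cells, which can also make interleukins 17 and 22, had medians of 0.03 and 0.46 with 0 of 6 past 2-fold on the negative side of either array. On the positive side 1 of 6 passed on the Th1 array, Kit at 2.43, and 2 of 6 on the Th17 array, Kit at 2.31 and Cd163l1 at 1.03. Kit is also 1 of the 9 mast cell and basophil markers counted above. CD8 T and NK cell markers went both ways, with medians of −0.13 and −0.16 over 9: with Th1 RNA, 3 passed 2-fold negatively and 1, Klrb1c at 3.22, positively. On the Th17 array 1 was negative, Klrc1 at −2.17, and 3 were positive, Klrb1c at 3.72, Nkg7 at 2.39 and Klra3 at 1.15. B cell markers had medians of −0.14 and 0.14 over 7, with 1 of 7 past 2-fold on the negative side of each array, Cr2. The part of cell composition in the members' ratios was not tested.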

How the data were processed

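Gene expression was measured on 2 two-colour arrays, after amplification and amino allyl labelling of 500 ng total RNA, per the labels' protocols. The deposited table holds 1 value per probe and array for 36547 probes, read as the authors' log2 ratio of the channels from the spacing of repeated values. All 79 values below −5 lay on log2 of ratios with 5 decimals. Scanner, background correction, normalization and genome build are not given in the sources used here, and how the values were centred and which channel is the numerator stay unknown. The medians over probes were −0.11 (Th1 and Th0) and −0.05 (Th17 and Th0).

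Probes were named by the platform's annotation: 26926 held 1 gene, 203 several and 9418 were unnamed here. Gene numbers matched RefSeq's GRCm38.p6 for 26774, and 0 symbols changed. Probes of a gene were averaged; a gene counted from 2-fold. No p-value was computed. Named were the 6 members, the 3 genes nearest to each, and of each list up to 4 genes of largest size on the Th17 and Th0 array; chromosome neighbours, receptors of the members' ligands and a few relatives were added after values were seen, as were Csf2, Cxcr6 and the marker genes. Members and lists were chosen with earlier results of these data known. The whole-number search was tested on simulated data and used a tolerance of 0.0001 log2 plus the rounding of the ratio. Python 3.11.15, pandas 2.3.3 and NumPy 2.4.6 were used. Alternatives changed the centre of each array, the probe taken per gene and the fold.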

Additional observations from a re-analysis of the deposited data

Results flagged for a closer look

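Looked at were 70 genes named by rule or as neighbours, without the control genes. Of these, 11 lay on opposite sides of 0 on the 2 arrays while at least 2-fold on 1 of them. With 1 array each, this difference was not tested. Among the members these were Il17a, with a Th17 minus Th1 difference of −5.67, and Il17f, with −2.44. Their Th1 values were 0.29 and 0.06, and that of Il17f turned to −0.19 when the arrays were centred on control genes. The others on the negative side of the difference were Trim6 (−5.16), Il1b (−2.62), Gsdmc4 (−2.53), Nt5e (−2.46), Ahr (−2.07), Il1rn (−1.34) and Il17re (−1.15). On the positive side were Nfkbiz (1.79) and Il12rb2 (1.61 from −0.59 and 1.01). For 8 of the 11 the Th1 value lay within 1 pooled probe SD (0.52) of 0, so its side is not clear of that spread. The 3 others were Il1b (0.61), Il12rb2 (−0.59) and Nfkbiz (−0.60). Outside the 70, the control gene Tfrc met the same rule. It lay at 0.81 on the Th1 and −1.06 on the Th17 array, a difference of −1.87.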

How the results depend on the processing

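No replicate, p-value or signal level is available, so every statement describes these 2 arrays. No paired analysis was possible because each comparison has 1 array and no test. Centring both arrays on the median of all probes, on the control genes (medians 0.25 and −0.02) or on the most repeated value kept the sign of all 6 members on the Th17 and Th0 array and in the difference, and all 6 members stayed past 2-fold on the former. On the Th1 and Th0 array, centring on the most repeated value moved the values of Il17a, Il17f, Il21, Il22, Il9 and Il23r to 1.14, 0.91, −0.39, −1.68, 0.16 and −0.17, so that Il9 changed side, and 1 member in place of 3 lay past 2-fold on the negative side. Counting from 3-fold also left 1, and centring on the probe median left 2. In the difference, centring on the most repeated value put 6 in place of 5 past 2-fold on the negative side, with 9.49% in place of 3.61% of all genes. By construction, that centring raises every value of this array by 0.85. It lowered the share of the negative side among all genes past 2-fold from 67.9% to 5.39% on the Th1 array and from 65.5% to 25.4% on the Th17 array, and raised it from 44.4% to 81.8% in the difference. Centring on control genes gave 86.6%, 63.6% and 22.3%, and on the probe median 56.5%, 62.0% and 51.1%. The remaining 84 of 90 member values moved by less than the probe spread, and 19 of 21 member counts by at most 1.5 times. Both totals include the settings that take the probe of highest or lowest size. Those settings could change no member, since each has 1 probe. Of 96 counts over the pathway lists, 10 moved by more than 1.5 times under the first 2 centrings.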
